A study of Mus musculus with 2 samples.

Results

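DNase-sensitive sites are stretches of chromatin open enough for the nuclease DNase I to cut, and they include active promoters, enhancers and other places where regulatory proteins displace nucleosomes. ATAC-seq probes the same openness with a transposase, which inserts sequencing adapters where DNA is accessible, so that each sequenced fragment reports an accessible stretch of the genome. In brain tissue, sites far from promoters carry much of the difference in accessibility between cell types, whereas many promoters are open in most cells. The values described here are the fragments, counted per cell barcode in nuclei sorted for cortical inhibitory neurons, that overlapped a site annotated as DNase-sensitive, set beside the fragments in called peaks and in any annotated regulatory region. Barcodes were taken if they had 1000 to 100000 unique fragments and a promoter fraction, the promoter-overlapping fragments over all unique fragments, of 0.1 to 0.6. This gave 9744 of 541150 listed barcodes in mouse 1 and 11403 of 548812 in mouse 2, or 21147 of 1089962 in all, and these are called filtered barcodes.

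Both mice were females of the genotype Gad2-Cre+/-; Sun1-GFP+/-, taken from the home cage without treatment, and the ages of these 2 animals were given only within a range for all animals of the study. In this genotype, Cre driven from the Gad2 gene, which encodes a GABA-synthesizing enzyme of inhibitory neurons, puts the GFP-tagged nuclear membrane protein SUN1 on the nuclei of those neurons. Nuclei from the posterior cortex around the PPC (posterior parietal cortex) were sorted on GFP, and each mouse gave 1 library on its own lane, so there was 1 condition with 2 replicates. Mouse and lane therefore cannot be told apart. The cell type rests on the Gad2 driver and the sort and could not be checked against marker genes, since the counts are per barcode and not per gene. Filtered barcodes still include the multiplets, of which the study's methods describe many, and the other cells that were removed at a later step not repeated here, so a barcode need not be a single inhibitory neuron.

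Sequencing gave 211165886 read pairs for mouse 1 and 212046147 for mouse 2. Filtered barcodes had 154716044 unique fragments in mouse 1, of which 73262316 overlapped a DNase-sensitive site, and 155716437 in mouse 2, of which 73382608 did. In both libraries 97.9% of the unique fragments assigned to a barcode belonged to filtered barcodes. A filtered barcode had a median of 14621.5 fragments in mouse 1 and 12923 in mouse 2. The same barcode sequence passed in both libraries in 165 cases. In these barcodes the DNase-sensitive share was 47.5% in mouse 1 and 46.8% in mouse 2, and without these barcodes it was 47.4% and 47.1%.

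A fragment can be counted in several of the region classes. DNase-sensitive sites, enhancers, promoters and transcription start sites are annotated classes, and in Cell Ranger ATAC they are fixed lists that belong to the reference. On-target fragments were taken to be those that overlap any of these 4 classes, which the files do not state, and in 0 of the listed barcodes of either library did the on-target count fall below the largest of the 4 or exceed their sum. Peaks, in contrast, are regions of high signal that the program calls from the sequenced fragments of a library, so that peak lists can differ between mice, if they were called per library, while annotated lists do not. Cell Ranger was run at its default parameters, but the source tissues and widths of the annotated sites were not given in the sources used here, nor was whether each library had its own peak list. The positions of the sites and peaks were not analysed here, so overlaps between classes can only be bounded from their totals.

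In filtered barcodes, close to the same share of fragments lay in DNase-sensitive sites in both mice. It was 47.4% in mouse 1 (exact Clopper-Pearson 95% interval 47.3 to 47.4) and 47.1% (47.1 to 47.1) in mouse 2, and averaged 47.2% ± 0.160 (SD, n = 2 mice). These intervals cover counting error only, since fragments of the same nucleus are not independent draws, and at this depth they are far narrower than the difference between the mice. The share in peaks was 46.8% in mouse 1 and 48.3% in mouse 2, averaging 47.6% ± 1.03 (SD, n = 2 mice). Peaks and DNase-sensitive sites thus took up nearly equal shares of fragments, but the mice lay further apart in peaks. On-target fragments made up 62.7% in mouse 1 and 62.5% in mouse 2, averaging 62.6% ± 0.12 (SD, n = 2 mice).

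DNase-sensitive sites took the largest share of fragments among the 4 annotated classes. Widths of the sites were not given, so this is not a coverage per base. Enhancers, the distal elements that raise transcription of a gene, took 28.5% of fragments in mouse 1 and 28.8% in mouse 2. Transcription start sites took 24.4% and 24.0%, and promoters, the stretches next to them where transcription is initiated, took 19.9% and 19.4%. Of all on-target fragments, 75.5% in mouse 1 and 75.4% in mouse 2 overlapped a DNase-sensitive site. The remaining on-target fragments, on this reading those in an enhancer, promoter or start site but in no DNase-sensitive site, made up 15.4% of unique fragments in each mouse. Blacklisted regions, which attract reads in most experiments regardless of biology, took 0.116% and 0.12%.

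The DNase-sensitive share was 0.520 percentage points above the peak share in mouse 1 and below it in mouse 2, at -1.17 points (mean -0.324 ± 1.19, SD, n = 2 mice). The mice therefore lay on opposite sides of 0, and an exact two-sided sign-flip permutation test over the 2 mice gave p = 1, where 0.5 is the smallest p that 2 mice can give. Counted by barcode, the DNase-sensitive share exceeded the peak share in 5581 of 9744 barcodes of mouse 1 (57.3%) and in 3345 of 11403 of mouse 2 (29.3%). With a minimum promoter fraction of 0.2 in place of 0.1, the difference in mouse 1 also turned negative, to -0.05 points, against -1.69 in mouse 2.

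The difference between the mice in this comparison came with the peak share more than with the DNase-sensitive share. Mouse 2 minus mouse 1 was 1.46 points for peaks and -0.23 points for DNase-sensitive sites. Within 5 classes of promoter fraction, the peak share was higher in mouse 2 in all 5, by 1.34 to 2.32 points, and the DNase-sensitive share was higher in mouse 2 in all 5, by 0.0828 to 0.420 points. Within 8 classes of fragments per barcode, the peak share was higher in mouse 2 in all 8, by 0.726 to 3.21 points. The DNase-sensitive share was higher in mouse 2 in 3 of those 8 classes and lower in 5, with differences from -0.847 to 1.80 points. With 1 library per mouse, the animal and the lane cannot be told apart in these differences, nor can the peak list if each library had its own.

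Uncalled barcodes with 20 to 99 fragments served as the background of each library. They were not called cells by Cell Ranger, numbered 28981 in mouse 1 and 20198 in mouse 2, and had medians of 26 and 25 fragments. In them, the DNase-sensitive share was 46.3% for mouse 1 (95% interval 46.2 to 46.4) and 42.5% for mouse 2 (42.3 to 42.6). The share in filtered barcodes was 1.02 times the background in mouse 1 and 1.11 times in mouse 2, averaging 1.07 ± 0.0611 (SD, n = 2 mice). Nearly empty barcodes thus had almost as high a share as filtered barcodes in mouse 1 and a somewhat lower one in mouse 2. The exact two-sided sign-flip permutation test gave p = 0.5 for each region class other than promoters, the smallest that 2 mice allow. No test is given for promoters, because the promoter fraction chose the filtered barcodes but not the uncalled ones. Fragments of the other annotated classes can also be promoter fragments, and on-target fragments were taken to include every promoter fragment. Peaks were called from fragments that mostly belonged to filtered barcodes. The test therefore cannot decide whether these classes stand above background, and their ratios are descriptions.

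Other regulatory classes stood above the same background by similar factors. Peaks were at 45.3% in the background of mouse 1 and 42.3% in that of mouse 2, and filtered barcodes were at 1.03 and 1.14 times these. On-target fragments were at 61.6% and 57.96%, for ratios of 1.02 and 1.08. Promoters had ratios of 1.03 and 1.13, enhancers 1.02 and 1.08, and transcription start sites 1.02 and 1.08. The promoter fraction chose the filtered barcodes but not the uncalled ones, so the promoter ratio is a description only. The peak ratio is also a description only. Peaks are called from a library's own fragments, and 97.9% of the unique fragments assigned to a barcode belonged to filtered barcodes. In each of these classes the ratio was larger in mouse 2. Blacklisted regions, a class outside regulatory annotation, had ratios of 0.998 and 0.994.

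**Figure D1:**
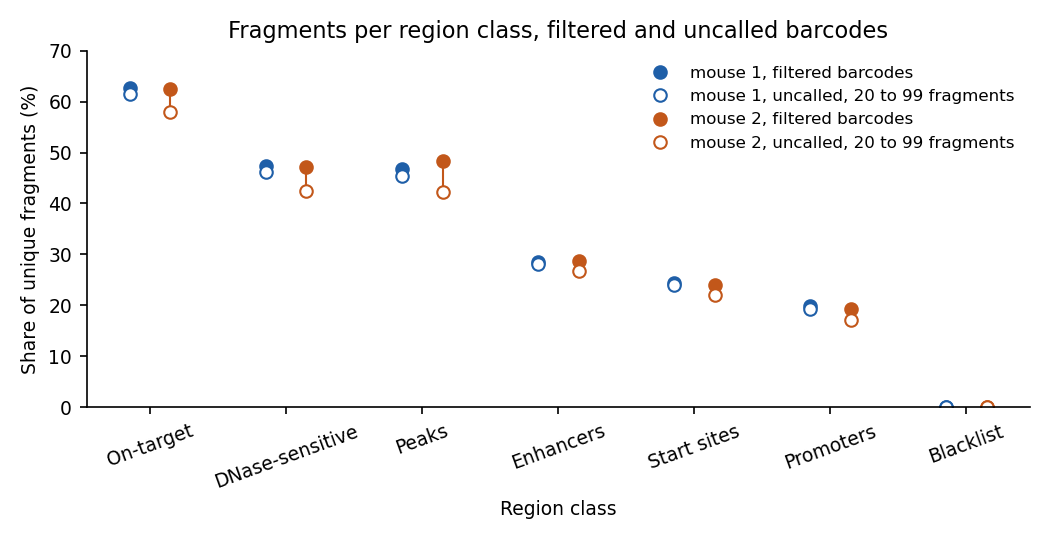
Share of unique fragments (%, vertical axis) in each region class (horizontal axis) for mouse 1 (blue) and mouse 2 (orange), with filled circles for filtered barcodes, open circles for uncalled barcodes with 20 to 99 fragments and a line joining the pair of a mouse. The DNase-sensitive circles lie at 47.4% and 46.3% in mouse 1 and at 47.1% and 42.5% in mouse 2, next to the peaks, where mouse 2 shows the longest line.

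The background was not a fixed level, and the ratio depended on which uncalled barcodes were used. In mouse 1, the DNase-sensitive share of uncalled barcodes was 47.4% at 1 to 4 fragments, 46.8% at 5 to 9, 45.8% at 10 to 19, 46.0% at 20 to 49, 47.7% at 50 to 99 and 46.9% from 100 to under 1000. In mouse 2, it was 47.2% at 1 to 4 fragments, 45.1% at 5 to 9, 41.4% at 10 to 19, 41.4% at 20 to 49, 46.4% at 50 to 99 and 44.6% from 100 to under 1000. Both mice had a dip between 10 and 49 fragments, and it was deeper in mouse 2. Against uncalled barcodes with 50 to 99 fragments, filtered barcodes of mouse 1 fell just below background, at 0.994 times, while those of mouse 2 were at 1.01 times. Peaks and on-target fragments turned the same way in mouse 1, at 0.997 times each. Against barcodes with 1 to 4 fragments, the ratio was 0.998 in each mouse, so the direction of this comparison depended on the background chosen.

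Uncalled barcodes also differed among themselves by more than counting error. At 20 to 49 fragments the SD of the DNase-sensitive share between barcodes was 10.1 points in mouse 1 and 11.3 in mouse 2, where binomial counting alone gives 9.84 and 9.74, which leaves 2.43 and 5.69 points. Barcodes with under 30% of their fragments in DNase-sensitive sites made up 5.22% of these in mouse 1 (1381 of 26474) and 15.2% in mouse 2 (2783 of 18307). Both this share and the mean are taken from the same values, so a lower mean alone raises it. Among the read pairs of barcodes with 20 to 99 fragments, mitochondrial pairs were at 4.56% for mouse 1 and 4.22% for mouse 2, against 0.259% and 0.242% in filtered barcodes. Read pairs of low mapping quality made up 7.69% and 8.87%, against 5.01% and 4.90%. Unmapped read pairs made up 9.44% and 8.97%, against 3.91% and 3.83%. These values also depended on which uncalled barcodes were used. At 1 to 4 fragments, mitochondrial pairs were at 0.263% and 0.243%, low mapping quality at 3.67% and 3.68% and unmapped pairs at 22.2% and 22.3%. From 100 to under 1000 fragments, mitochondrial pairs were at 4.86% and 15.1%, low mapping quality at 8.07% and 14.9% and unmapped pairs at 4.70% and 4.21%. The part of these in the difference between filtered and uncalled barcodes was not tested.

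Across single filtered barcodes, the DNase-sensitive share spread well beyond counting error. In mouse 1 it ran from 26.5% to 71.9%, with a median of 47.5% and a 5th to 95th percentile range of 41.6% to 59.4%. In mouse 2 it ran from 27.8% to 71.7%, with a median of 47.3% and a range of 41.4% to 61.0%. The distributions of the mice lay nearly on top of each other. The SD between barcodes was 5.39 points in mouse 1 and 5.59 in mouse 2, where binomial counting gives 0.547 and 0.552. Other classes spread by similar amounts, with SDs of 5.49 and 5.56 points for peaks, 5.55 and 5.70 for on-target fragments, 4.80 and 4.94 for promoters and 4.48 and 4.60 for transcription start sites. The enhancer share spread less, by 1.64 and 1.69 points.

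Both distributions had a main body and, above a trough near 60%, a small second rise. In mouse 1 the bin from 59% to 60% held 10 barcodes and the bin from 65% to 66% held 74. In mouse 2 the bin from 60% to 61% held 27 barcodes and the bin from 65% to 66% held 83. At 60% or more lay 483 barcodes of mouse 1 (4.96%) and 597 of mouse 2 (5.24%), with median depths of 4634 and 4381 fragments. Of these, 474 and 585 had a promoter fraction of 0.30 or more, out of 515 and 629 such barcodes in all. Barcodes at 60% or more and promoter-rich barcodes were thus nearly the same set.

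**Figure D2:**
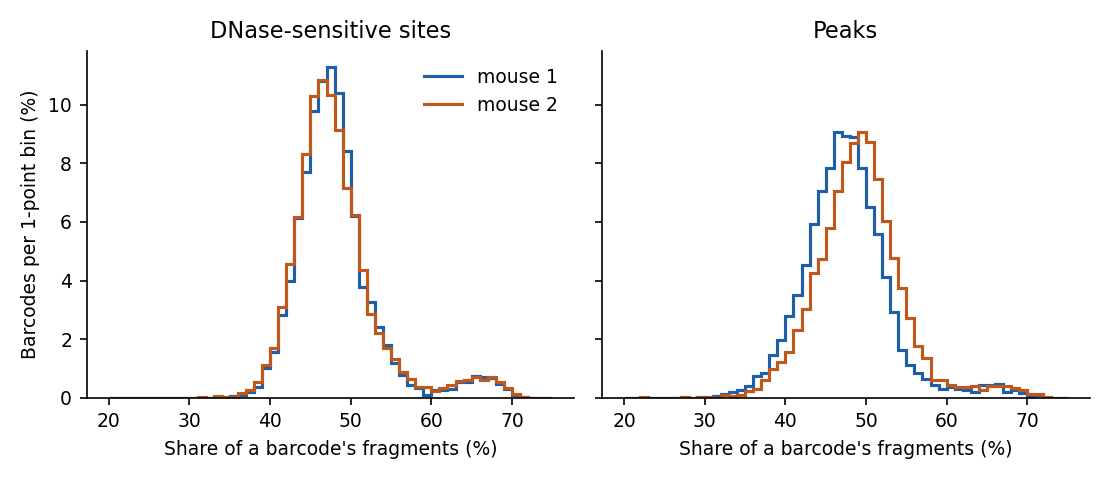
Percentage of filtered barcodes (vertical axis) per bin of 1 percentage point of the share of a barcode's fragments (horizontal axis) in DNase-sensitive sites (left) and in peaks (right), for mouse 1 (blue, 9744 barcodes) and mouse 2 (orange, 11403 barcodes). The curves of the mice overlap on the left, with medians of 47.5% and 47.3%, and are shifted on the right, with medians of 47.3% and 49.1%.

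The DNase-sensitive share rose with the promoter fraction of the barcode in both mice. In mouse 1 it was 39.7% at a promoter fraction of 0.10 to 0.15 (266 barcodes), 45.4% at 0.15 to 0.20 (4817), 49.5% at 0.20 to 0.25 (3729), 54.6% at 0.25 to 0.30 (417) and 64.5% at 0.30 or more (515). In mouse 2 it was 40.1% (482 barcodes), 45.5% (6146), 49.9% (3745), 55.0% (401) and 64.6% (629) in the same classes. Promoter fragments can themselves overlap DNase-sensitive sites and the promoter fraction entered the choice of barcodes, so part of this rise is shared by construction. Taken as a difference, the DNase-sensitive minus the promoter share stayed between 25.5 and 28.2 points in mouse 1 and between 26.0 and 28.6 points in mouse 2 over these classes.

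On-target fragments outside DNase-sensitive sites hardly varied. They made up 15.3%, 15.3%, 15.3%, 15.6% and 16.8% of unique fragments in mouse 1 from the lowest to the highest class of promoter fraction. In mouse 2 they made up 15.4%, 15.4%, 15.4%, 15.6% and 16.6%. Over single barcodes their SD was 0.725 points in mouse 1 and 0.718 in mouse 2, of which binomial counting gives 0.399 and 0.402. Differences between barcodes in the on-target share, with SDs of 5.55 and 5.70 points, were therefore almost entirely differences in the DNase-sensitive share. The DNase-sensitive part of on-target fragments rose from 72.1% to 79.4% in mouse 1 and from 72.3% to 79.6% in mouse 2 between the lowest and the highest class.

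The peak share rose less steeply at the upper end. From the lowest to the highest class of promoter fraction it was 36.6%, 44.6%, 49.8%, 54.2% and 59.2% in mouse 1, and 38.9%, 46.6%, 52.0%, 56.0% and 60.6% in mouse 2. The DNase-sensitive share was above the peak share at both ends of the range in both mice, by 3.06 and 1.16 points in the lowest class and by 5.30 and 4.06 points in the highest. In the class of 0.20 to 0.25 it was below the peak share in both mice, at -0.33 and -2.11 points. At a promoter fraction of 0.30 or more, the DNase-sensitive share exceeded the peak share in 471 of 515 barcodes of mouse 1 (91.5%) and in 489 of 629 of mouse 2 (77.7%). Below 0.30 the figures were 55.4% of 9229 barcodes and 26.5% of 10774. Mitochondrial read pairs were 1.03% and 0.522% in the class of 0.30 or more, and duplicates 18.1% and 17.6% of duplicates plus unique fragments, against 12.2% over all filtered barcodes of each mouse. Their part in the result was not tested.

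**Figure D3:**
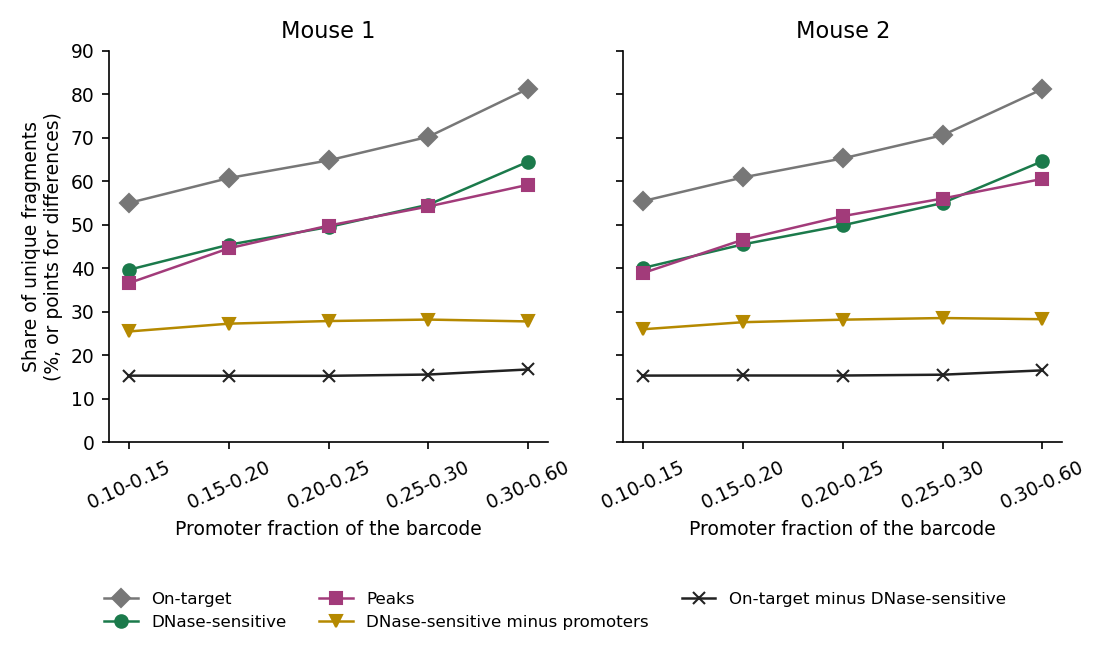
Share of unique fragments (%) or difference of shares (percentage points) on the vertical axis, over 5 classes of the promoter fraction of filtered barcodes, for mouse 1 (left) and mouse 2 (right), where each marker pools the barcodes of its class. The DNase-sensitive line (green circles) climbs from 39.7% to 64.5% in mouse 1 and from 40.1% to 64.6% in mouse 2, while on-target minus DNase-sensitive (black crosses) stays between 15.3 and 16.8 points.

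Barcodes of different depth had different DNase-sensitive shares. In mouse 1 the share was 49.2% from 1000 to under 2000 fragments, 53.4% from 2000, 53.3% from 4000, 49.8% from 7000, 47.7% from 10000, 46.5% from 15000, 46.5% from 20000 and 47.3% from 30000 up, each class ending below the next. In mouse 2 it was 49.4%, 55.1%, 53.4%, 49.6%, 47.4%, 46.0%, 46.1% and 46.4% in the same classes. Both mice peaked between 2000 and 7000 fragments and were lowest between 15000 and 30000. When barcodes with a promoter fraction of 0.29 or more were left out, a bound chosen after earlier results of these data were known, the highest class was at 48.8% in mouse 1 and 49.2% in mouse 2, both in the class from 4000 fragments. The lowest was then at 46.5% and 46.0%. Leaving out these barcodes lowers the high classes in part by construction, since promoter fraction and DNase-sensitive share can count the same fragments.

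**Figure D4:**
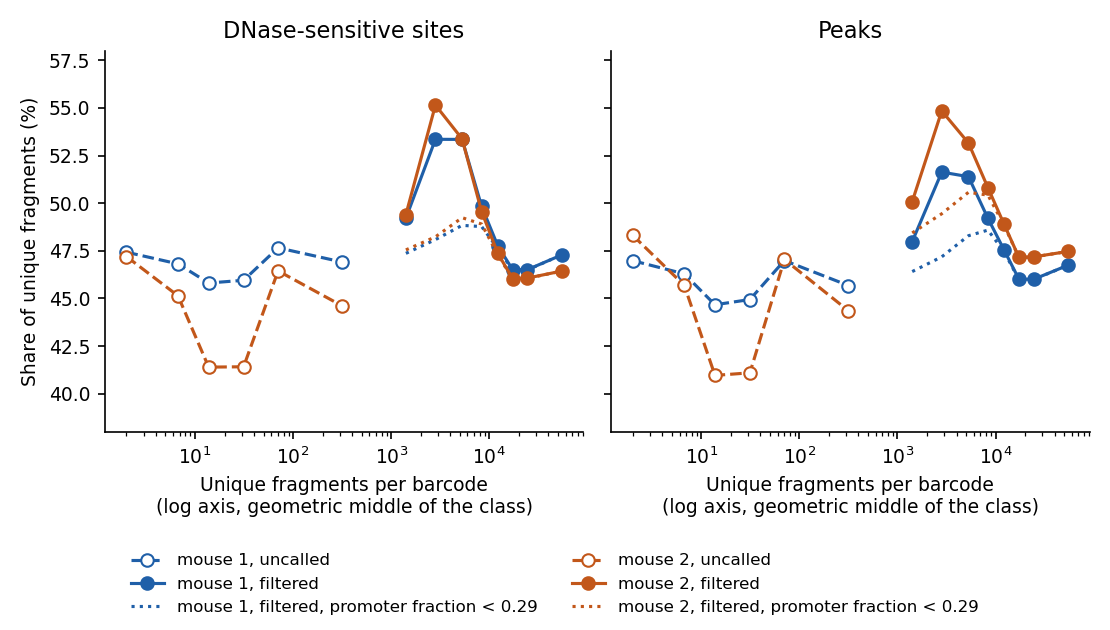
Share of unique fragments (%, on an axis that does not start at 0) in DNase-sensitive sites (left) and in peaks (right) against unique fragments per barcode (log axis), for uncalled barcodes (open circles, dashed), filtered barcodes (filled circles) and filtered barcodes with a promoter fraction below 0.29 (dotted). On the left the filtered barcodes peak at 53.4% in mouse 1 (blue) and 55.1% in mouse 2 (orange), and the uncalled barcodes of mouse 2 dip to 41.4%.

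Barcodes rich and poor in DNase-sensitive fragments differed in depth and in read quality as well. In the 10% of barcodes with the lowest share, 41.1% of fragments lay in DNase-sensitive sites in mouse 1 and 40.9% in mouse 2, with a median of 17175 and 16228 fragments. In the 10% with the highest share it was 58.7% and 59.3%, with a median of 6224 and 5896 fragments. Barcodes high in DNase-sensitive fragments were thus smaller. The mitochondrial share of read pairs was 0.165% and 0.160% at the lowest and 0.624% and 0.437% at the highest. Duplicates made up 11.9% and 11.5% in the lowest group and 15.4% in the highest group of each mouse. These groups were formed from the DNase-sensitive share itself and are a description, and the part of depth, mitochondrial reads and duplicates in the spread was not tested.

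Correlations over the 9744 and 11403 barcodes, which share their library, are a description. Region-class shares have the same denominator, unique fragments, while mitochondrial and low mapping quality pairs were taken over all read pairs of a barcode. The DNase-sensitive share had a Spearman correlation of 0.988 in mouse 1 and 0.99 in mouse 2 with the on-target share. If on-target fragments are the union of the 4 classes, every DNase-sensitive fragment is counted in both, and these 2 shares are not separate measures. The correlation was 0.884 and 0.886 with promoters, 0.859 and 0.871 with peaks, and 0.810 and 0.805 with enhancers. With the on-target share outside DNase-sensitive sites it was -0.05 and -0.11. With the number of unique fragments it was -0.26 and -0.35. Among barcodes with a promoter fraction below 0.29 these last values were -0.16 and -0.21 for the on-target share outside DNase-sensitive sites and -0.16 and -0.26 for unique fragments, so they depended on the promoter-rich barcodes. The largest negative value among the quantities compared belonged to read pairs of low mapping quality, at -0.68 in each mouse. For mitochondrial read pairs the Spearman correlation was 0.454 and 0.466, and the Pearson correlation 0.141 and 0.164. For the on-target share outside DNase-sensitive sites the Pearson correlation was positive, at 0.158 and 0.0849. The sign of that correlation thus depended on the statistic.

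The class totals of each barcode, summed over filtered barcodes, set limits on how the classes can overlap. If on-target fragments are the union of the 4 annotated classes, then at least 22.9% of the promoter fragments of mouse 1 and 20.8% of those of mouse 2 also lay in a DNase-sensitive site. For enhancer fragments the least share was 46.2% and 46.4%, and for fragments at transcription start sites 37.1% and 35.7%. Conversely, at least 58.1% and 58.9% of the DNase-sensitive fragments lay outside promoters, the distal or otherwise non-promoter part of open chromatin. Among barcodes with a promoter fraction of 0.30 or more, this least share was 43.1% and 43.8%, and at least 54.3% and 54.4% of promoter fragments lay in a DNase-sensitive site. These limits come from totals per barcode and not from the fragments themselves.

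The same totals per barcode say little about how far peaks and DNase-sensitive sites coincide. Between 2.39% and 97.7% of the DNase-sensitive fragments of mouse 1, and between 3.40% and 98.999% of those of mouse 2, could lie in peaks. The near equality of the 2 shares thus does not show that the same fragments were counted. At a promoter fraction of 0.30 or more, at least 36.8% and 38.9% of DNase-sensitive fragments lay in peaks. Of the peak fragments of all filtered barcodes, at least 21.4% and 23.2% overlapped an annotated regulatory region.

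The barcodes next to the bounds that chose the filtered set are given as a description. Listed barcodes with 900 to under 1000 fragments, just outside, had 48.0% in each mouse (80 and 77 barcodes), and those from 1000 with fewer than 100 fragments more, just inside, had 49.7% and 48.95% (69 and 71 barcodes). Just below a promoter fraction of 0.1, from 0.08, lay 2 barcodes of mouse 1 at 28.2% and 4 of mouse 2 at 28.0%. Just above it, up to 0.12, lay 7 barcodes at 30.5% and 6 at 32.8%. These are few barcodes, and the promoter fraction and the DNase-sensitive share can count the same fragments, so a step there is partly built in.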

How the data were processed

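Nuclei of 2 mice were profiled by 10x single-cell ATAC-seq, 1 library each. The authors mapped reads to mm10 and processed barcodes with Cell Ranger at default parameters, and the submitters' processing notes name Cell Ranger ATAC 1.1.0. The deposited values are unnormalized whole-number counts of read pairs and unique fragments for each barcode of each mouse, with the fragments overlapping each region class. The outcome of the later SnapATAC steps was not used here.

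From these counts, shares were computed per mouse as summed class fragments over summed unique fragments, then given as mean and SD over 2 mice. Read pairs without a valid barcode (5.69% and 5.64%) were left out. Intervals are exact Clopper-Pearson at 95%. Differences and ratios were taken within a library and tested by an exact two-sided sign-flip permutation over mice. Barcodes were not treated as replicates. Spread beyond counting error is the SD after subtracting binomial variance, and this calculation was tested on simulated data. No gene value is given, as no gene was measured, and all region classes and the classes of depth and promoter fraction listed in the plan are reported. The region class, its comparisons and these classes were chosen with earlier results of these data known. Alternatives changed the summary, the fragment and promoter minima, the cell calls and the background, and left out each mouse. Calculations used Python 3.11.15 with SciPy 1.17.1, NumPy 2.4.6 and pandas 2.3.3, and plots matplotlib 3.10.9.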

Additional observations from a re-analysis of the deposited data

How the results depend on the processing

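Apart from leaving out a mouse, alternatives gave 51 values for 7 results, of which 36 moved by less than the SD between the mice and 15 by more. A minimum promoter fraction of 0.2 gave means of 50.8% in DNase-sensitive sites, 51.6% in peaks and 66.2% on target, with ratios to background of 1.15, 1.18 and 1.11, since it keeps the barcodes richest in promoter fragments. Keeping promoter fractions below 0.29, chosen after seeing the data, gave 46.9% in DNase-sensitive sites and 62.3% on target. The on-target mean was 62.7% as a median over barcodes and 62.5% with a minimum of 5000 fragments, and the cause was not tested. Against uncalled barcodes with 50 to 99 fragments, the mean ratios were 1.00 for DNase-sensitive sites and 1.00 on target. Against those with 1 to 4 fragments, chosen after seeing the data, they were 0.998 for DNase-sensitive sites, 0.998 for peaks and 0.997 on target, and the cause was not tested. Against those with 100 to under 1000, also chosen after seeing the data, the DNase-sensitive ratio was 1.03. Leaving out each mouse gave 47.1% to 47.4% in DNase-sensitive sites, 46.8% to 48.3% in peaks, 62.5% to 62.7% on target, -1.17 to 0.520 points for DNase-sensitive minus peak share, and ratios of 1.02 to 1.11, 1.03 to 1.14 and 1.02 to 1.08. With 2 mice this always stays within their SD and says nothing about stability. Pairing between groups was not possible, because there is a single group and no replicate number links samples of different groups. Differences between region classes and ratios to background were paired within each mouse. Depth limits the uncalled barcodes: at 20 to 49 fragments, counting alone gives a barcode's share an SD of 9.84 points in mouse 1.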

Other observations

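Barcodes outside the filtered set are given here as values. Cell Ranger called 1477 barcodes of mouse 1 and 2051 of mouse 2 with fewer than 1000 fragments, and in them 48.0% and 47.4% of fragments lay in DNase-sensitive sites, 47.4% and 48.7% in peaks and 63.4% and 62.8% on target. As in filtered barcodes, the DNase-sensitive share was above the peak share in mouse 1, by 0.569 points, and below it in mouse 2, at -1.29 points.

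The minimum promoter fraction of 0.1 removed 7 barcodes of mouse 1 and 12 of mouse 2 with 1000 to 100000 fragments, of which 2 and 4 were called cells. Their DNase-sensitive shares ran from 15.1% to 29.7% (median 20.1%) in mouse 1 and from 13.8% to 29.4% (median 18.7%) in mouse 2, while the lowest filtered barcodes were at 26.5% and 27.8%. On-target fragments outside DNase-sensitive sites were at 15.9% and 15.3% of their fragments, near the 15.4% of filtered barcodes, although 18.5% and 17.1% of their fragments lay in peaks. Read pairs of low mapping quality made up 11.4% and 13.01% of their read pairs. The promoter fraction chose these barcodes, so their low DNase-sensitive shares are a description.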
